A study of Mus musculus with 12 samples.

Results

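Macrophages carrying an arginase 1 reporter were sorted from mouse tumours, and 8 genes that do not belong to the usual polarization programmes were followed through all of the libraries. The 8 genes were Htr2b, S1pr1, Npy, Pdpn, Pmp22, Tmeff1, Adam8 and AA467197, out of 24346 gene symbols in the tables. They were picked because these same data had shown them higher in reporter-positive (RFP+) than in reporter-negative (RFP-) cells. That choice fixes their direction between the gates, so those differences are given as a description with no test, and the tests below are between the tumours. The check of the picking found 1 exception: Tmeff1 was higher in RFP+ cells of MC38 tumours but not in those of B16F10 tumours.

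The mice carried Arg1-RFP, a red fluorescent read-out of Arg1, the enzyme that splits arginine into ornithine and urea. All mice bore the reporter and a tumour grown from 1 of 2 mouse lines, the melanoma line B16F10 or the colon adenocarcinoma line MC38. In each tumour the sort kept CD45+, MHCII+, F4/80+ and CD11b+ cells and dropped those with Ly6G, Ly6C, B220, NK1.1 or CD90.2. The 4 groups were B16F10 RFP+, B16F10 RFP-, MC38 RFP+ and MC38 RFP-, with 3 libraries each. The titles number the libraries 12, 11 and 3 in B16F10 and 1, 2 and 3 in MC38, and the same numbers stand in both gates. No strain background, age or animal is tied to a library in the labels.

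Several of the 8 products are best known outside macrophages. Htr2b is a serotonin receptor that signals through Gq proteins, and S1pr1 is the Gi-coupled receptor for sphingosine 1-phosphate that guides lymphocytes out of lymphoid organs. Npy is a peptide transmitter of sympathetic and central neurons. Pdpn (podoplanin) is a mucin-like surface glycoprotein of lymphatic endothelium and fibroblasts and the ligand of the platelet receptor CLEC-2. Pmp22 is a tetraspan protein of compact myelin. Tmeff1 is a transmembrane protein with follistatin-like and EGF-like domains that antagonises Nodal signalling in Xenopus. Adam8 is a metalloprotease of leukocytes that cleaves cell-surface proteins. AA467197, also called Nmes1, encodes a small mitochondrial protein related to the cytochrome c oxidase subunit Ndufa4, and its transcript holds the hairpin of Mir147.

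Levels are in FPKM, fragments per kilobase of transcript scaled to the mapped fragments, and each library summed to between 614875 and 815591 FPKM with 10445 to 11103 genes at or above 1 FPKM. The depth in reads is unknown. The step between the lowest FPKM values was 2.88 to 3.54 times that of MC38 RFP- number 2 in B16F10 and 1 to 1.13 times in MC38, so low levels are less precise in B16F10. B16F10 RFP- number 12 had the highest total and the most genes listed at 0 (10597). All 11 macrophage core markers were above 1 FPKM in every library, but their mean log2 level was lower in B16F10 than in MC38 by -1.97 in RFP+ and -2.08 in RFP- cells. Within each tumour that mean was higher in RFP+ than in RFP- cells, by 0.26 in B16F10 and 0.15 in MC38. Dendritic cell markers summed to 7.07 to 15.9 FPKM in RFP+ and 14.0 to 48.9 FPKM in RFP- libraries of B16F10. In MC38 those sums were 13.3 to 36.9 FPKM in RFP+ and 23.4 to 64.1 FPKM in RFP- libraries, and RFP+ was lower in every pair of both tumours. The 8 melanocytic markers summed to 8146 to 10703 FPKM in B16F10 RFP+ and 8174 to 10711 FPKM in B16F10 RFP- libraries, against 14.4 to 19.2 FPKM in MC38 RFP+ and 10.9 to 14.7 FPKM in MC38 RFP- libraries. Melanocytic RNA was thus present in both B16F10 gates. In these bulk samples, fewer cells that express a gene and less of its RNA per cell cannot be told apart.

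The sequences just upstream of the transcription start were read for the genes that have an entry, which were 7 of the 8 (10 starts, 4 of them of Pmp22), from RefSeq on GRCm38.p6. They are shown for the 3 genes whose upstream bases held TGANTCA, a loose form of the AP-1 site with any middle base, or an E-box (CACGTG). Both strands were searched. Each is 250 bases in 5′ to 3′ direction, ending at the base before the start, with motif letters in capitals.
Htr2b, chr1:86111981-86112230, minus strand: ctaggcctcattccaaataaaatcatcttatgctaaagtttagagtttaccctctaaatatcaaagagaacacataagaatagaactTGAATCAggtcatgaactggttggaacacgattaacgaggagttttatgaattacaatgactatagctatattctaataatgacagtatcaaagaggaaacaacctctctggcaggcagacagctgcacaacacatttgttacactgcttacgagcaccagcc
Pdpn, chr4:143299565-143299814, minus strand: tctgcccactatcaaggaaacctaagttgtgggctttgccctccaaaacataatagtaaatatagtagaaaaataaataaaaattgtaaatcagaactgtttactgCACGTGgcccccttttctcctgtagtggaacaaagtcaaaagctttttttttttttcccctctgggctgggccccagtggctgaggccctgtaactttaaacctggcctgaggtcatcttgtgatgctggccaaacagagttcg
AA467197, chr2:122637637-122637886, plus strand: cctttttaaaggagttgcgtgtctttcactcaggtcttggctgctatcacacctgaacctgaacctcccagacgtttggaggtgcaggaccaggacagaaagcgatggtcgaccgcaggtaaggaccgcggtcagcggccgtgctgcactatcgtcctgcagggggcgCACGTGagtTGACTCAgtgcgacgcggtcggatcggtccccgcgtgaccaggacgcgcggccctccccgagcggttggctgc
The search covered 250 bases before to 50 bases after each start. The loose AP-1 letters TGANTCA stood in the windows of Htr2b and AA467197, and in 7.81% of all 32851 windows. The usual AP-1 site has C or G in the middle, as in TGACTCA of AA467197 but not in TGAATCA of Htr2b. The share of windows with that narrower site was not counted. E-box letters stood in the windows of Pdpn and AA467197, and in 7.15% of all windows. Each E-box also holds ACGTG, the core of hypoxia response elements, on both strands, and these letters stood once more in 1 Pmp22 window (19.6% of all windows). C/EBP letters (TTGCNNAA) stood in the Adam8 window (10.8% of all windows). STAT (TTCNNNGAA) and CRE (TGACGTCA) letters stood in none of the 10 windows, against 8.30% and 1.79% of all windows. A match describes letters and says nothing of binding.

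Arg1, which the gate reads out, separated the gates in every pair of libraries. In B16F10 it stood at 615, 642 and 916 FPKM in RFP+ numbers 12, 11 and 3 and at 62.8, 56.2 and 125 FPKM in RFP- numbers 12, 11 and 3. MC38 gave 471, 553 and 394 FPKM in RFP+ numbers 1, 2 and 3 and 56.0, 58.5 and 40.6 FPKM in RFP- numbers 1, 2 and 3. The labels of the gates and the Arg1 levels thus go together in all 12 libraries.

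Of the 8 genes, 7 were higher in RFP+ than in RFP- cells in 6 of 6 pairs with the same title number. In B16F10, 5 of the 8 had every RFP+ library above every RFP- library, as did 5.72% of all 11808 genes tested, and in MC38 all 8 had, as did 6.33% of all genes. These shares are read as a description, since the genes were chosen on this difference. On the log2(FPKM + 1) scale, which understates the change of low genes, their median difference was 1.11 in B16F10 and 1.13 in MC38, where the medians of all genes were -0.012 and 0.0017. Ranked by difference among 11808 genes, Npy stood at place 9 in B16F10 and place 7 in MC38, and Htr2b at places 37 and 8.

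**Figure D1:**
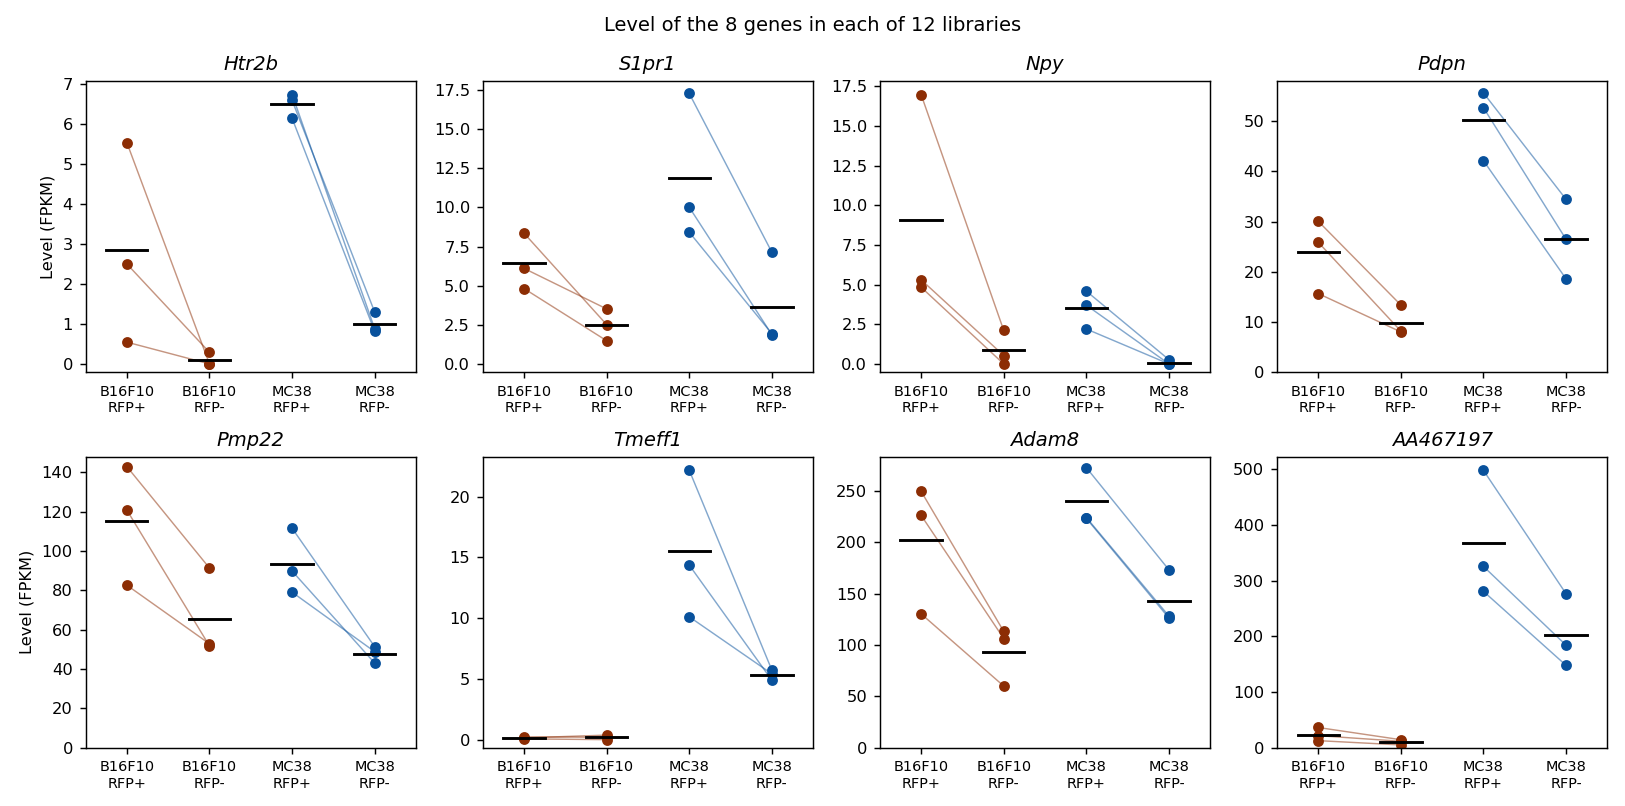
Level in FPKM (linear axis) of each of the 8 genes in the 3 libraries of B16F10 RFP+, B16F10 RFP-, MC38 RFP+ and MC38 RFP- cells. Points are libraries, thin lines join the same title number, and black bars are group means. AA467197 reaches 498 FPKM in MC38 RFP+ cells and at most 36.3 FPKM in B16F10, and Tmeff1 stays at or below 0.372 FPKM in all B16F10 libraries.

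The serotonin receptor gene Htr2b (GRCm38 chr1:86099026-86111970, minus strand) was low in RFP- cells of both tumours. Its level in B16F10 was 5.53, 2.50 and 0.545 FPKM in RFP+ numbers 12, 11 and 3, against 0.291 FPKM in RFP- number 11 and a listed 0 in RFP- numbers 12 and 3. In MC38 it was 6.73, 6.58 and 6.14 FPKM in RFP+ cells, against 0.878, 1.29 and 0.811 FPKM in RFP- cells. The gates did not overlap in either tumour. The 3 MC38 RFP+ libraries lay close together, while the B16F10 RFP+ libraries spread over a wide range and number 3 came near the RFP- level. The log2 difference between the gates was 1.59 ± 0.38 in B16F10 and 1.92 ± 0.38 in MC38 (SE, limma).

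S1pr1 (GRCm38 chr3:115710433-115715072, minus strand) was 8.36, 6.10 and 4.82 FPKM in RFP+ numbers 12, 11 and 3 of B16F10, against 2.51, 3.52 and 1.48 FPKM in the RFP- libraries of the same numbers. In MC38 the levels were 10.01, 17.3 and 8.42 FPKM in RFP+ numbers 1, 2 and 3 and 1.87, 7.13 and 1.93 FPKM in RFP- numbers 1, 2 and 3. Number 2 was the highest MC38 library in both gates, and its RFP- level came close to the lower RFP+ libraries without reaching them. The log2 difference was 1.10 ± 0.39 in B16F10 and 1.597 ± 0.39 in MC38 (SE). Endothelial markers, whose cells also express S1pr1, summed to 3.24 to 5.11 FPKM in RFP+ and 3.53 to 4.76 FPKM in RFP- libraries of B16F10, with Tek and Erg at 0 in both gates, and to 11.4 to 20.9 FPKM in RFP+ and 10.98 to 17.3 FPKM in RFP- libraries of MC38, with Cldn5 at 0 in both gates. Of the 10 endothelial markers, 1 reached 1 FPKM in every library of each B16F10 gate and 2 in every library of each MC38 gate. Lymphocyte markers summed to at most 8.79 FPKM in any library.

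Npy (GRCm38 chr6:49822710-49829507, plus strand), which encodes the 1 secreted peptide among the 8, was low or listed at 0 in RFP- cells of both tumours. RFP+ cells of B16F10 held 4.84, 17.0 and 5.31 FPKM in numbers 12, 11 and 3, against 2.11 and 0.531 FPKM in RFP- numbers 11 and 3 and a listed 0 in RFP- number 12. MC38 gave 4.59, 3.70 and 2.201 FPKM in RFP+ cells, against 0.266 FPKM in RFP- number 1 and a listed 0 in RFP- numbers 2 and 3. Number 11 was the highest B16F10 library in both gates, and no RFP- library reached an RFP+ library of its tumour. The log2 difference was 2.37 ± 0.45 in B16F10 and 2.02 ± 0.45 in MC38 (SE). Of the 10 neuronal and sympathetic markers, Th, Syt1 and Phox2a were listed at 0 in all 12 libraries, and in B16F10 RFP+ libraries every marker but the tubulin gene Tubb3 was. The sum of the list was 32.5 to 40.05 FPKM in RFP+ and 30.0 to 71.5 FPKM in RFP- libraries of B16F10, and 4.49 to 8.82 FPKM in RFP+ and 2.87 to 6.71 FPKM in RFP- libraries of MC38.

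Pdpn (GRCm38 chr4:143267431-143299564, minus strand) was 25.9, 30.1 and 15.7 FPKM in RFP+ numbers 12, 11 and 3 of B16F10 and 8.16, 13.4 and 7.997 FPKM in RFP- numbers 12, 11 and 3. Its MC38 levels were 52.7, 55.6 and 42.1 FPKM in RFP+ cells, against 26.4, 34.4 and 18.6 FPKM in RFP- cells. The gates did not overlap in either tumour. Every MC38 RFP- library was above every B16F10 RFP- library, and the share of all genes with no overlap between the tumours was not counted. The log2 difference between the gates was 1.18 ± 0.27 in B16F10 and 0.93 ± 0.27 in MC38 (SE). Podoplanin also marks fibroblasts and lymphatic endothelium. The 10 fibroblast markers summed to 2.55 to 3.20 FPKM in RFP+ and 3.26 to 3.71 FPKM in RFP- libraries of B16F10, and to 56.0 to 65.1 FPKM in RFP+ and 49.0 to 60.5 FPKM in RFP- libraries of MC38. Of these 10, 1 reached 1 FPKM in every library of each B16F10 gate and 2 in every library of each MC38 gate. Fap was listed at 0 in all MC38 libraries and Thy1 in all MC38 RFP- libraries. The 6 lymphatic endothelial markers summed to 1.81 to 9.47 FPKM in RFP+ and 0.475 to 1.30 FPKM in RFP- libraries of B16F10, where the sum was higher in RFP+ cells as Pdpn was. In B16F10, 1 of the 6 reached 1 FPKM in every RFP+ library and 0 did in every RFP- library. Mmrn1 was listed at 0 in all B16F10 RFP+ libraries but not in all RFP- ones. The list summed to 0.317 to 4.90 FPKM in RFP+ and 0.378 to 5.74 FPKM in RFP- libraries of MC38, and Ccl21a, 1 of the 6, was listed at 0 in all 12 libraries. The part of fibroblast or lymphatic RNA in the Pdpn levels was not tested.

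Pmp22 (GRCm38 chr11:63128982-63159547, plus strand) was among the more abundant of the 8. It stood at 143, 82.6 and 121 FPKM in RFP+ numbers 12, 11 and 3 of B16F10, against 91.3, 52.8 and 51.7 FPKM in RFP- numbers 12, 11 and 3. RFP- number 12 was above RFP+ number 11, so these groups overlapped, although RFP+ was the higher library of each pair. MC38 gave 112, 79.0 and 89.8 FPKM in RFP+ cells, against 51.3, 48.8 and 43.0 FPKM in RFP- cells, with no overlap. The log2 difference was 0.83 ± 0.24 in B16F10 and 0.95 ± 0.24 in MC38 (SE). Schwann cell markers, some of which pigment cells share, summed to 211 to 298 FPKM in RFP+ and 261 to 497 FPKM in RFP- libraries of B16F10, and to 7.39 to 9.91 FPKM in RFP+ and 6.48 to 9.21 FPKM in RFP- libraries of MC38. Of these 7 markers, 4 reached 1 FPKM in every library of each B16F10 gate and 1 in every library of each MC38 gate. Foxd3 was listed at 0 in all B16F10 RFP+ and all MC38 libraries.

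Adam8 (GRCm38 chr7:139978932-139992562, minus strand) was among the more abundant as well. B16F10 RFP+ libraries held 226, 130 and 250 FPKM in numbers 12, 11 and 3, against 106, 60.1 and 113 FPKM in RFP- numbers 12, 11 and 3. In MC38 the levels were 223, 273 and 224 FPKM in RFP+ cells, against 126, 173 and 128 FPKM in RFP- cells. The gates did not overlap in either tumour, and the ratio of RFP+ over RFP- lay between 2.13 and 2.205 in the 3 B16F10 pairs and between 1.57 and 1.77 in the 3 MC38 pairs. The log2 difference was 1.11 ± 0.26 in B16F10 and 0.76 ± 0.26 in MC38 (SE). Neutrophils also express Adam8. Their markers summed to 61.0, 25.1 and 314 FPKM in RFP+ numbers 12, 11 and 3 of B16F10 and to 120, 29.5 and 823 FPKM in the RFP- libraries of the same numbers, so number 3 led in both gates for the markers and for Adam8, while the markers were higher in RFP- and Adam8 in RFP+. In MC38 the markers summed to 40.3 to 44.9 FPKM in RFP+ and 40.2 to 44.5 FPKM in RFP- libraries. The part of neutrophil RNA in the spread of Adam8 was not tested.

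AA467197, the mitochondrial gene, had lower levels in B16F10 than in MC38 in both gates. In B16F10 it was 12.7, 36.3 and 21.7 FPKM in RFP+ numbers 12, 11 and 3 and 5.02, 14.4 and 11.6 FPKM in RFP- numbers 12, 11 and 3. RFP+ number 12 was below RFP- number 11, so the B16F10 groups overlapped. In MC38 it was 326, 498 and 281 FPKM in RFP+ cells, against 184, 276 and 148 FPKM in RFP- cells, and RFP+ number 3 was just above RFP- number 2. Within pairs the ratio of RFP+ over RFP- was 1.87 to 2.54 in B16F10 and 1.77 to 1.90 in MC38, and the log2 difference between the gates was 1.11 ± 0.39 in B16F10 and 0.86 ± 0.39 in MC38 (SE). Mir147, whose hairpin (GRCm38, chr2:122640803-122640881, plus strand) lies in the last exon and the untranslated region of AA467197 (chr2:122636986-122641191), was listed at 0 in all 12 libraries. The hairpin shares its bases with that exon, and how reads of overlapping genes were assigned is not given. A listed 0 therefore does not show whether Mir147 was made.

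Tmeff1 (GRCm38 chr4:48585174-48663131, plus strand) was not higher in RFP+ cells of B16F10. Its B16F10 level was 0.0630, 0.144 and 0.228 FPKM in RFP+ numbers 12, 11 and 3, against 0.372 and 0.195 FPKM in RFP- numbers 11 and 3 and a listed 0 in RFP- number 12. All 6 values were at or near the lower end of what these libraries resolve, and the gates overlapped. In MC38 it was 22.2, 14.4 and 10.1 FPKM in RFP+ cells, against 5.72, 4.89 and 5.41 FPKM in RFP- cells, with no overlap. The log2 difference was -0.045 ± 0.25 in B16F10 and 1.32 ± 0.25 in MC38 (SE). The B16F10 difference minus the MC38 difference was -1.37 ± 0.35 (SE) for Tmeff1, which was not tested because the rule used both differences. For the other 7 genes it ran from -0.50 to 0.35, each within 1 SE of 0 in this fit, which does not pair the libraries. Among these 7 only Adam8 had pair differences that did not overlap between the tumours. They were 1.08 to 1.13 in B16F10 and 0.65 to 0.82 in MC38, which was not tested either.

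**Figure D2:**
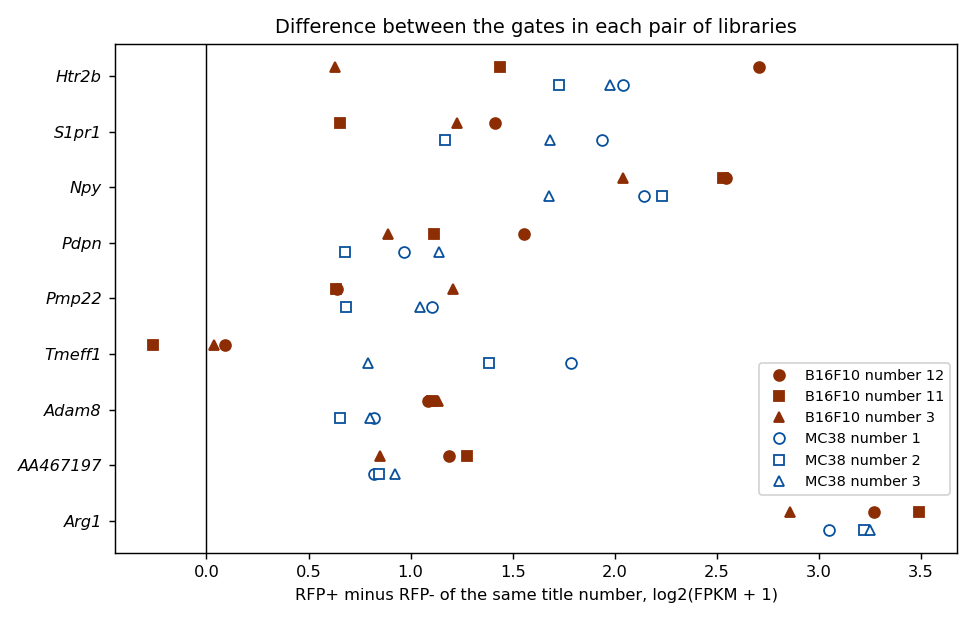
Difference on the log2(FPKM + 1) scale between the RFP+ and the RFP- library of the same title number, for the 8 genes and for Arg1. Filled symbols are the 3 B16F10 pairs and open symbols the 3 MC38 pairs. All points but 1, Tmeff1 in B16F10 number 11 (-0.26), lie above 0, and the Arg1 points lie between 2.86 and 3.49.

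The library that was highest in RFP+ cells was often the one with the same number in RFP- cells. This held for 5 of 8 genes in B16F10 and 7 of 8 in MC38, and the share over all genes was not counted. Deviations from group means also went together across all genes in libraries of equal number (r from 0.228 to 0.443). Number 11 led for Npy, Pdpn and AA467197 in both gates of B16F10, and number 2 for Pdpn, S1pr1, AA467197 and Adam8 in both gates of MC38. The exceptions were Htr2b in both tumours and S1pr1 and Tmeff1 in B16F10.

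The tumours were compared next, within each gate, by limma on the 11808 genes that reached 1 FPKM in 3 or more libraries. All 8 genes passed that filter, but Htr2b and Tmeff1 reached 1 FPKM in only 6 of 12 libraries, and Npy in 7. In RFP+ cells 4 of the 8 were lower in B16F10 than in MC38 and 0 were higher, where 20.0% of all genes tested were lower and 35.2% higher. AA467197 was 23.6 ± 11.9 FPKM in B16F10 and 368 ± 115 FPKM in MC38 (SD, n = 3 each), which is 15.6-fold lower in B16F10 (log2 -3.98 ± 0.39 (SE), limma adjusted p = 2.66e-06). Tmeff1, 1 of the 4, was 0.145 ± 0.0823 FPKM in B16F10 and 15.5 ± 6.12 FPKM in MC38 (SD, n = 3 each; log2 -3.79 ± 0.25). It passed the filter only through the 6 MC38 libraries, so it had to differ, and its place in the counts is read as a description. In the fit with no filter its limma adjusted p was 4.40e-06. Pdpn was 23.9 ± 7.42 FPKM in B16F10 and 50.2 ± 7.10 FPKM in MC38 (log2 -1.08 ± 0.27, limma adjusted p = 0.00442). Htr2b was lower too (log2 -1.19 ± 0.38, limma adjusted p = 0.0168), a call that ended without B16F10 RFP+ number 3, its lowest RFP+ library (log2 -0.65, limma adjusted p = 0.0638). In B16F10 only RFP+ numbers 12 and 11 reached 1 FPKM for Htr2b, so it passed the filter only with its MC38 libraries. Its place in the counts is therefore read as a description too. In the fit with no filter the limma adjusted p of Htr2b was 0.0529.

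The other 4 genes did not pass in RFP+ cells. Npy was 9.04 ± 6.88 FPKM in B16F10 and 3.496 ± 1.21 FPKM in MC38 (log2 0.99 ± 0.45, limma adjusted p = 0.0743). Every B16F10 RFP+ library was above every MC38 RFP+ library for Npy, and below for S1pr1. The share of all genes with no overlap between the tumours was not counted. Npy passed without B16F10 RFP+ number 12 (log2 1.28, limma adjusted p = 0.0441) and without B16F10 RFP- number 11 (limma adjusted p = 0.0402). Without B16F10 RFP+ number 11, its highest library, the Npy difference was 0.47 (limma adjusted p = 0.345). S1pr1 was 6.43 ± 1.79 FPKM in B16F10 and 11.9 ± 4.73 FPKM in MC38 (log2 -0.76 ± 0.39, limma adjusted p = 0.115), and passed without MC38 RFP- number 2 (limma adjusted p = 0.0443). Without MC38 RFP+ number 2, its highest library, the S1pr1 difference was -0.48 (limma adjusted p = 0.365). Adam8 was 202 ± 63.3 FPKM in B16F10 and 240.2 ± 28.3 FPKM in MC38 (log2 -0.29 ± 0.26, limma adjusted p = 0.361). Pmp22 was 115 ± 30.5 FPKM in B16F10 and 93.4 ± 16.6 FPKM in MC38 (log2 0.28 ± 0.24, limma adjusted p = 0.331). The median log2 difference of the 8 genes was -0.92, against 0.23 over all genes.

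In RFP- cells 4 of the 8, Tmeff1 included, were lower in B16F10 and 0 were higher, where 21.9% of all genes were lower and 37.8% higher. AA467197 was 10.3 ± 4.81 FPKM in B16F10 and 203 ± 66.3 FPKM in MC38 (SD, n = 3 each; log2 -4.23 ± 0.39, limma adjusted p = 1.38e-06). Tmeff1 had 5.34 ± 0.422 FPKM in MC38 and the low values given above in B16F10 (log2 -2.42 ± 0.25), and a limma adjusted p of 5.55e-05 in the fit with no filter. Pdpn was 9.84 ± 3.05 FPKM in B16F10 and 26.5 ± 7.93 FPKM in MC38 (log2 -1.34 ± 0.27, limma adjusted p = 0.000913). Adam8 was 93.3 ± 28.9 FPKM in B16F10 and 142.6 ± 26.6 FPKM in MC38 (log2 -0.64 ± 0.26), with a limma adjusted p of 0.0499 at the edge of the threshold. That call ended without any 1 of 8 libraries, which were B16F10 RFP+ number 12, B16F10 RFP- number 11 and the 6 MC38 libraries (limma adjusted p from 0.0567 to 0.218).

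Htr2b (log2 -0.87 ± 0.38, limma adjusted p = 0.0635), Npy (0.64 ± 0.45, limma adjusted p = 0.233), Pmp22 (0.40 ± 0.24, limma adjusted p = 0.163) and S1pr1 (-0.27 ± 0.39, limma adjusted p = 0.582) did not pass in RFP- cells. Htr2b passed there without B16F10 RFP+ number 12 or number 3 (limma adjusted p = 0.0161 and 0.00851). With all libraries and no filter the limma adjusted p of Htr2b in RFP- cells was 0.144. The S1pr1 difference turned to 0.23 without MC38 RFP- number 2, its highest RFP- library. With the libraries of a number joined as a replicate block, the calls of all 8 genes on the deposited scale were the same in both gates.

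The comparison of tumours depended on the scale. Scaling every library to the mean of the macrophage core markers moved the median difference of all genes to 1.87 in RFP+ and 1.98 in RFP- cells. Of all 11808 genes, 9994 were then called higher and 335 lower in B16F10 RFP+ cells, and 9969 higher and 339 lower in RFP- cells. On that scale AA467197 (log2 -2.04 in RFP+ and -2.23 in RFP- cells) and Tmeff1 (-2.65 and -1.40) had lower values in B16F10 in both gates, with a limma adjusted p of 0.00177 in RFP+ and 0.000891 in RFP- cells for AA467197. Htr2b (0.31), Pdpn (0.83), S1pr1 (0.98) and Adam8 (1.67) turned to higher values in B16F10 RFP+ cells, and S1pr1 and Adam8 passed (limma adjusted p = 0.0447 and 3.05e-06). Pdpn did not pass there (limma adjusted p = 0.0606), but did with the replicate block added (limma adjusted p = 0.0325). In RFP- cells Pdpn (0.62), S1pr1 (1.26) and Adam8 (1.42) turned as well, and again S1pr1 and Adam8 passed (limma adjusted p = 0.0133 and 1.40e-05). Pmp22 was then higher in B16F10 in both gates (2.23 and 2.44), and Npy in RFP+ cells (2.54). With the block added Npy passed in RFP- cells too (log2 1.25, limma adjusted p = 0.0356, against 0.0729 without it). Against the median of all genes on the same scale, AA467197 lay at -3.91 and -4.20, Tmeff1 at -4.52 and -3.37, Pdpn at -1.03 and -1.35 and Htr2b at -1.56 and -2.27 in RFP+ and RFP- cells. S1pr1 lay at -0.89 and -0.72 and Adam8 at -0.20 and -0.56, below that median although called higher. Pmp22 lay at 0.36 and 0.47 and Npy at 0.67 and -0.73. The part of melanocytic RNA in these differences was not tested.

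**Figure D3:**
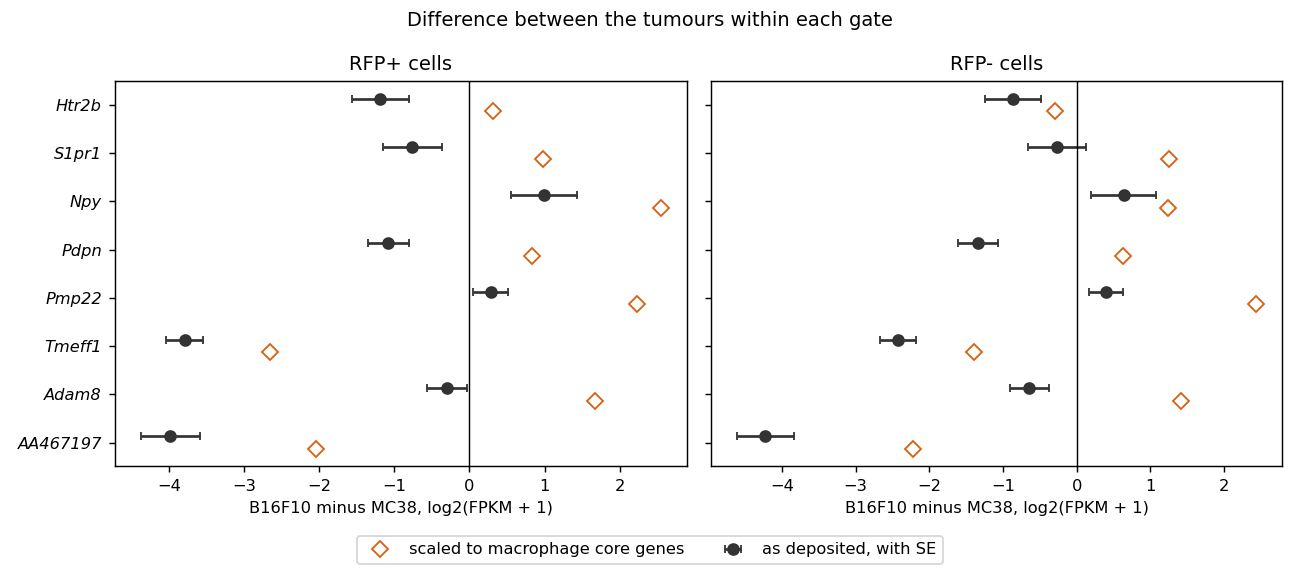
B16F10 minus MC38 difference on the log2(FPKM + 1) scale for the 8 genes, in RFP+ cells (left) and RFP- cells (right). Filled points are the deposited values with their SE from limma, and open diamonds are the values after scaling to the macrophage core genes. AA467197 and Tmeff1 lie below 0 on both scales in both gates, while Pdpn, S1pr1 and Adam8 change side.

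The pathways around the 8 genes were measured next, through lists of known partners. Of 122 listed partner genes 68 passed the filter. Without the block 0 of them were called in B16F10 and 0 in MC38 (8 and 4 had an unadjusted limma p under 0.05), where 0.178% and 0.0254% of all genes were called. Their median log2 difference was -0.0028 in B16F10 and 0.025 in MC38. With the replicate block 1 of the 68 was called in B16F10 and 0 in MC38, where 1.36% and 0.440% of all genes were called.

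Between the tumours 27 of the 68 were higher and 23 lower in B16F10 in each gate, where 35.2% of all genes were higher and 20.0% lower in RFP+ cells, and 37.8% higher and 21.9% lower in RFP- cells. Some of the 68 passed the filter only through the tumour where they are high, such as Tph2 and Adam12 (B16F10) and Htr7 (MC38). Such genes had to differ, and their places in the counts are read as a description. In RFP+ cells the higher and lower genes were 3 and 2 of 6 in serotonin signalling, 1 and 0 of 3 in the neuropeptide Y system, and 1 and 4 of 8 among the podoplanin partners. They were 0 and 2 of 3 in the PMP22 and EMP family, 3 and 7 of 14 in the sphingosine 1-phosphate pathway, and 1 and 0 of 5 in the Tmeff and Nodal pathway. With core scaling they were 4 and 1 in serotonin signalling, 2 and 0 in the neuropeptide Y system, 8 and 0 among the podoplanin partners, 2 and 1 in the PMP22 and EMP family, 11 and 2 in the sphingosine 1-phosphate pathway and 5 and 0 in the Tmeff and Nodal pathway. On that scale 9994 of all 11808 genes were higher and 335 lower in B16F10 RFP+ cells.

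The gene called between the gates with the block was Emp1, an epithelial membrane protein of the PMP22 family. This 1 call among 68 genes is near the share of all genes called there (1.36%), so it is read as a description. Emp1 was 79.8 ± 11.01 FPKM in B16F10 RFP+ and 38.5 ± 6.68 FPKM in B16F10 RFP- cells (SD, n = 3 each). Its log2 difference with the block was 1.04 ± 0.16 (limma adjusted p = 0.0114, against 0.197 without it). Emp1 reached 88.6 ± 13.9 FPKM in MC38 RFP+ and 51.1 ± 20.3 FPKM in MC38 RFP- cells (log2 0.85). The limma adjusted p there was 0.0646 with the block and 0.681 without it. It was 0.0285 with the block when the B16F10 number 12 pair was left out, a setting chosen after seeing the data. Emp3, its more abundant relative, was 268 ± 6.46 FPKM in B16F10 RFP+ and 350 ± 130 FPKM in B16F10 RFP- cells (log2 -0.32, limma adjusted p = 0.535) and 524 ± 44.4 FPKM in MC38 RFP+ and 453 ± 58.3 FPKM in MC38 RFP- cells (limma adjusted p = 1).

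Among the 14 measured genes of the sphingosine 1-phosphate pathway, the receptor gene S1pr2 had a higher mean FPKM than S1pr1 in every group, and its gates differed by less than the spread between libraries. It was 23.5 ± 8.67 FPKM in B16F10 RFP+ and 28.8 ± 13.4 FPKM in B16F10 RFP- cells (log2 -0.23 ± 0.34, limma adjusted p = 0.782). The MC38 level was 19.4 ± 0.562 FPKM for RFP+ and 19.1 ± 1.94 FPKM for RFP- cells (log2 0.024 ± 0.34, limma adjusted p = 1). S1pr3 stayed at or below 0.561 FPKM, S1pr4 at or below 0.415 FPKM and S1pr5 at or below 0.0968 FPKM in all 12 libraries. Klf2, a transcription factor that drives S1pr1 in T cells, was 9.63 ± 4.25 FPKM in B16F10 RFP+ and 9.95 ± 2.47 FPKM in B16F10 RFP- cells, and 91.3 ± 28.5 FPKM in MC38 RFP+ and 79.5 ± 15.98 FPKM in MC38 RFP- cells. It was called between the tumours (log2 -3.14 in RFP+ and -2.89 in RFP- cells, limma adjusted p = 1.62e-06 and 2.93e-06) and not between the gates (limma adjusted p = 0.917 in B16F10 and 1 in MC38).

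The neuropeptide Y list had 3 measured genes. The receptor gene Npy1r stayed at or below 0.182 FPKM in all 12 libraries. Cpe, a carboxypeptidase that trims peptide hormones, was 208 ± 67.9 FPKM in B16F10 RFP+ and 196 ± 85.0 FPKM in B16F10 RFP- cells, and 18.7 ± 5.24 FPKM in MC38 RFP+ and 17.9 ± 5.40 FPKM in MC38 RFP- cells. The log2 difference between the tumours was 3.39 in RFP+ cells and 3.34 in RFP- cells (limma adjusted p = 2.01e-06 and 2.03e-06). Of 24 serotonin genes 6 were measured. Tph2, which makes the serotonin precursor, was 3.53 to 6.76 FPKM in B16F10 RFP+ and 2.79 to 5.30 FPKM in B16F10 RFP- libraries and at most 0.0107 FPKM in MC38. The degrading enzyme gene Maoa was 11.1 ± 1.13 FPKM in B16F10 RFP+ and 2.005 ± 0.636 FPKM in MC38 RFP+ cells (log2 2.02, limma adjusted p = 3.24e-06). Cpe, Tph2 and Maoa were thus higher in B16F10 RFP+ than in MC38 RFP+ cells, where 35.2% of all genes were called higher. The B16F10 libraries held melanocytic RNA, and its part in these 3 levels was not tested. The serotonin receptor gene Htr7 went the other way. It was 5.20 ± 1.69 FPKM in MC38 RFP+ and 5.65 ± 2.17 FPKM in MC38 RFP- cells, and at most 0.761 FPKM in B16F10.

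Podoplanin's partner Cd9, a tetraspanin, was 247 ± 40.9 FPKM in B16F10 RFP+ and 174 ± 31.4 FPKM in B16F10 RFP- cells (log2 0.50 ± 0.20, limma adjusted p = 0.490 without the block and 0.0622 with it). The MC38 level was 212 ± 27.0 FPKM for RFP+ and 167 ± 40.6 FPKM for RFP- cells (log2 0.36 ± 0.20, limma adjusted p = 1). Clec1b, which encodes CLEC-2, stayed at or below 1.40 FPKM in all 12 libraries. Of the 11 measured ADAM and TIMP genes 3 were higher and 6 lower in B16F10 RFP+ cells (35.2% and 20.0% of all genes). With core scaling 9 were higher and 0 lower (9994 and 335 of all 11808 genes). Adam17, the main sheddase of tumour necrosis factor, was 33.5 ± 2.82 FPKM in B16F10 RFP+ and 78.5 ± 8.78 FPKM in MC38 RFP+ cells (log2 -1.20, limma adjusted p = 3.64e-05), though with core scaling it was 0.73. Adam12 was 5.88 to 9.40 FPKM in B16F10 RFP+ libraries and at most 0.00978 FPKM in MC38 RFP+ libraries (log2 3.10). It passed the filter only through B16F10 libraries, so it had to differ.

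AA467197 and its relative Ndufa4 stood in opposite order between the tumours. Ndufa4 was 1888 ± 145 FPKM in B16F10 RFP+ and 157 ± 25.1 FPKM in MC38 RFP+ cells (SD, n = 3 each; log2 3.59 ± 0.17, limma adjusted p = 3.01e-09). RFP- cells had 2034 ± 358 FPKM in B16F10 and 198 ± 25.3 FPKM in MC38 (log2 3.35 ± 0.17, limma adjusted p = 5.51e-09). Of the 18 measured genes of the cytochrome c oxidase list, 15 were higher and 2 lower in B16F10 RFP+ cells (35.2% and 20.0% of all genes), and 15 were higher and 1 lower in B16F10 RFP- cells (37.8% and 21.9% of all genes). With core scaling 17 were higher and 0 lower in each gate. Of all 11808 genes, 9994 were then higher and 335 lower in RFP+ cells, and 9969 higher and 339 lower in RFP- cells. The melanocytic sums given above moved the same way, and their part in this was not tested. Between the gates 0 of the 18 were called with or without the block, and Ndufa4 had log2 differences of -0.095 ± 0.17 in B16F10 and -0.34 ± 0.17 in MC38 (limma adjusted p = 0.825 and 1).

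**Figure D4:**
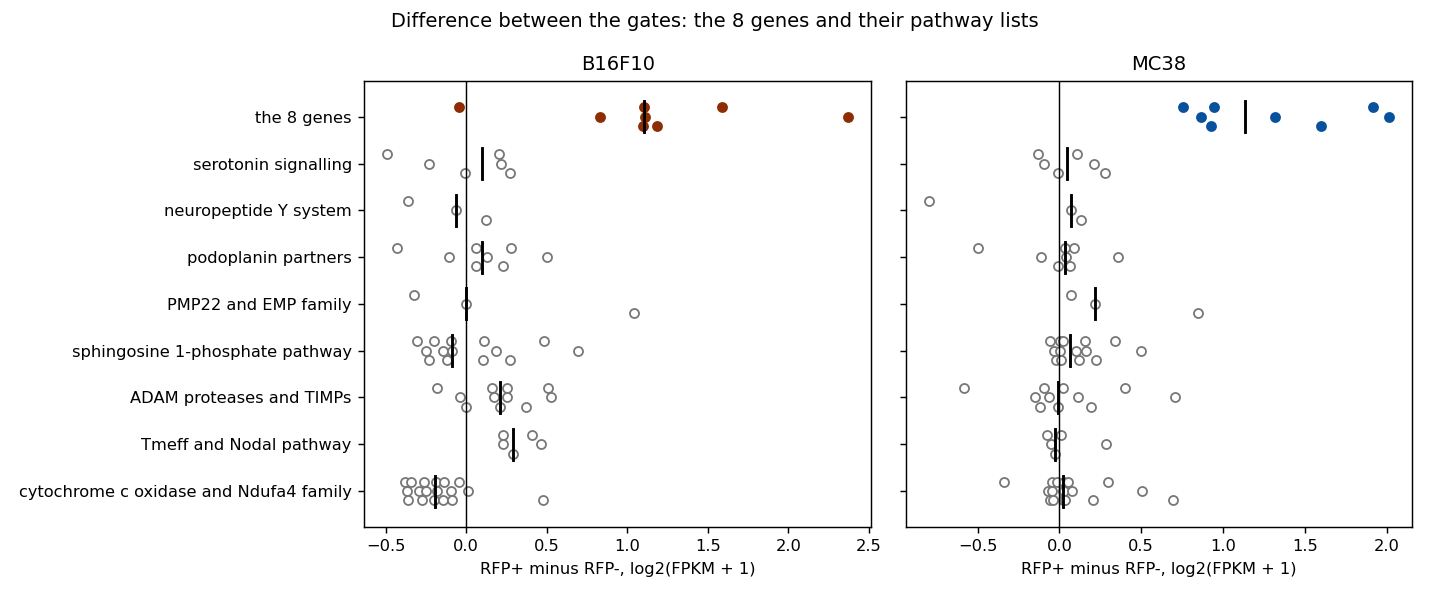
RFP+ minus RFP- difference on the log2(FPKM + 1) scale in B16F10 (left) and MC38 (right), for the 8 genes (filled) and the measured members of the 8 pathway lists (open). Each point is a gene and black bars are medians. The medians of the 8 genes are 1.11 and 1.13, those of the lists lie between -0.19 and 0.29 in B16F10 and between -0.027 and 0.22 in MC38, and Emp1 is the open point at 1.04 and 0.85.

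For each gene the profile over the 12 libraries was set against 7784 other genes with a mean of at least 5 FPKM, by the root-mean-square gap between centred log2(FPKM + 1) values. The gaps describe these libraries, which share tumours and gates, and carry no test. Pmp22 had the closest neighbour, the protease inhibitor gene Serpinb6a (gap 0.186), followed by Gclm (0.305) and Ptgr1 (0.309), a glutathione synthesis gene and a prostaglandin reductase gene. Adam8 lay near Sepp1 (0.237), Rhov (0.249) and Emilin2 (0.284). Pdpn lay near the C-type lectin gene Clec4d (0.327), the interleukin 7 receptor gene Il7r (0.329) and the Notch ligand gene Jag1 (0.352).

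Both receptors had Nos2 among their 3 neighbours. Htr2b lay near Clec4d (0.572), the arginine transporter gene Slc7a2 (0.662) and the nitric oxide synthase gene Nos2 (0.670), and S1pr1 near Rgcc (0.402), Nos2 (0.482) and Emp1 (0.494). Npy lay near the elastase gene Mmp12 (0.678), the prolyl hydroxylase gene Egln3 (0.710) and Rnf128 (0.754). AA467197 lay near the receptor gene Trem1 (0.418), the guanylate-binding protein gene Gbp4 (0.594) and Nr4a2 (0.646), and Tmeff1 near the complement gene C3 (0.465), Ltbp1 (0.486) and Il18bp (0.499). Among the 8 themselves the smallest gap was 0.512, between Htr2b and Pdpn, and the largest was 2.56, between Npy and AA467197.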

How the data were processed

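Each library came as a table of gene symbols with FPKM values, the unit per the file headers. The authors made cDNA with SMART-Seq HT and libraries with Nextera XT, per the labels. The submitters' processing notes name TopHat2 2.1.1, Bowtie2 2.2.8, SAMtools 0.1.18, Cuffdiff 2.2.1 and mm10. The sources used here do not give the annotation, strand setting or scaling between libraries, and overlapping or antisense genes may share reads. FPKM hold no read depth, so no counting interval is given.

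Deposited FPKM values were used as log2(FPKM + 1). Genes that reached 1 FPKM in 3 or more libraries were fitted with limma 3.58.1 in R 4.3.3 (4 group means, 8 residual degrees of freedom, eBayes with trend, two-sided), with Benjamini-Hochberg adjustment over 11808 genes and a threshold of 0.05. The fit was tested on simulated data. P-values measure the spread between libraries, which may be technical. Title numbers pair the libraries: deviations from group means correlated at r from 0.228 to 0.443 across genes for equal numbers and from -0.306 to 0.0178 for different ones. The block fit used the number as a fixed block between gates (4 residual degrees of freedom) and a random block between tumours (correlation 0.291).

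The members and lists were chosen with earlier results of these data known. The rule for named genes took the 8 genes, up to 6 called genes per pathway list and comparison, the 3 most abundant of each list and the 3 nearest profiles of each member. Not all of these are named, and S1pr2 to S1pr5, Npy1r, Clec1b and Mir147 were named after their values were seen. Alternatives covered pseudocounts of 0.1 and 5, filters, scalings, weights, the block and each library left out. Python 3.11.15 with pandas 2.3.3 and matplotlib 3.10.9 made the other tables and the plots. Gene positions are from GENCODE on GRCm38, and no read-level data were used.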

Additional observations from a re-analysis of the deposited data

How the results depend on the processing

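Between the gates, the 7 genes other than Tmeff1 kept a positive difference in both tumours in every setting run, as did Tmeff1 in MC38 (Npy was lost under the filter of 5 FPKM and has no value there). In B16F10 the Tmeff1 difference ran from -0.16 to 0.064 over the left-out libraries. Pseudocounts moved the low genes most: with 0.1 and with 5 the Htr2b difference was 3.75 and 0.58 in B16F10 and 2.61 and 0.94 in MC38, and that of Npy 3.89 and 1.17 in B16F10 and 4.48 and 0.73 in MC38. AA467197 in B16F10 was 0.70 without RFP- number 12.

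Counts of called genes between the gates depended on the setting. In B16F10 21 genes were called, against 10 with pseudocount 0.1, 7 with no filter, 5 with the compared groups alone, 238 with array weights, 160 with the replicate block, 163 with the block without the number 12 pair, 1867 with the block and core scaling, and 4 (without RFP- number 12) to 90 (without RFP- number 11) over the left-out libraries. In MC38 3 were called, against 11 with pseudocount 5, 6 after quantile normalization, 1 with core scaling, 8 with the compared groups alone, 59 with array weights, 52 with the replicate block, 137 with the block without the B16F10 number 12 pair, 15 with the block and core scaling, and 1 (without MC38 RFP- number 1) to 8 (without MC38 RFP+ number 3) over the left-out libraries. In B16F10, 18 genes were higher and 3 lower after quantile normalization, against 15 and 6 as deposited, and core scaling gave 9 and 20. The 2 settings that join the block with another change were chosen after seeing the data.

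Between the tumours, 6523 genes were called in RFP+ cells (5658 to 7373 over the left-out libraries), against 10329 with core scaling and 10261 with core scaling and the block, and 7051 in RFP- cells (6316 to 7007). The split of 4159 higher and 2364 lower in RFP+ cells became 3365 and 3014 after quantile normalization and 9994 and 335 with core scaling, and that of 4467 and 2584 in RFP- cells became 3564 and 3291 or 9969 and 339. On the deposited scale the block changed no call of the 8 genes with all libraries in. With core scaling it added calls for Pdpn in RFP+ cells (adjusted p = 0.0325, against 0.0606 without it) and Npy in RFP- cells (0.0356, against 0.0729). Core scaling, alone or with the block, turned Htr2b (0.31), Pdpn (0.83), S1pr1 (0.98), Adam8 (1.67), Emp1 (1.80), Emp3 (1.004) and Adam17 (0.73) in RFP+ cells and Pdpn (0.62), S1pr1 (1.26), Adam8 (1.42), Emp1 (1.70), Emp3 (1.65) and Adam17 (0.44) in RFP- cells. Its construction lifts the B16F10 libraries, whose core markers are lower. Tmeff1 and AA467197 had lower values in B16F10 in every setting run, and AA467197 had an adjusted p under 0.05 in each. Htr2b in RFP+ cells was not called with pseudocount 0.1 (adjusted p = 0.0631) or with no filter (0.0529), and Adam8 in RFP- cells was not called with either pseudocount, no filter, the compared groups alone or array weights (0.0514 to 0.119). Calls were gained for Npy in RFP+ cells with pseudocount 5 (0.0423), S1pr1 in RFP+ cells with the compared groups alone (0.0399), and Htr2b in RFP- cells with pseudocount 0.1, quantile normalization, the compared groups alone and array weights (0.00434 to 0.0492). With the block and no B16F10 number 12 pair, calls were gained for Npy in RFP+ (0.0164) and RFP- cells (0.0459) and Htr2b in RFP- cells (0.0384). Read depth is unknown, and the wider step between low FPKM values in B16F10 limits the precision of Htr2b, Npy and Tmeff1 there.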
